A study of Mus musculus with 2 samples.

Results

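The 56 genes described here encode the ligands, receptors, inhibitors and intracellular regulators of the Wnt pathway. They were selected by symbol from all 18944 genes that both tables list, as the Wnt, Fzd, Dkk, Sfrp, Rspo, Dvl, Axin and Nkd families with Lrp5, Lrp6, Rnf43, Znrf3, Lgr4, Apc, Gsk3a, Gsk3b, Porcn, Wls, Notum, Apcdd1 and Wif1. RNA was sequenced from cultures labelled as intestinal stem cells from mice aged 2 months, with 1 library of genotype Lgr5GFP-CreERT2 WT and 1 of genotype Lgr5GFP-CreERT2 Stat6 KO, in which the transcription factor STAT6 was targeted by CRISPR/Cas with a lentivirus. The Lgr5GFP-CreERT2 allele, carried in both, marks Lgr5-expressing cells with GFP and gives them an inducible Cre. Per the labels, the medium of both held R-spondin 1, EGF, N-acetylcysteine, the N2 and B27 supplements and the ROCK inhibitor Y27632. The knockout protocol stands under both samples, so what the WT culture received, and whether the KO is 1 clone or a pool, is unknown here.

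Values are FPKM, fragment counts scaled by the length of the transcript and by the mapped total of the library. With 1 library per genotype there is no error for any value, no difference has a replicate check, and differences below are between these 2 libraries. Depth was estimated from the value steps of short genes at 20000000 reads (WT) and 20200000 reads (KO). The labels state an average of 59000000 reads per sample. A multiple of the estimated depth would raise each read number given here by that factor. For a gene of 2 kilobases, about 40 reads give 1 FPKM at the estimate. The Stat6 transcript itself was at 41.3 FPKM in WT and 44.2 in KO, which does not check the label, since a CRISPR deletion need not remove a transcript. The epithelial markers Epcam (577 and 531 FPKM) and Cdh1 (318 and 272) were abundant in both libraries, and Lgr5 was low, at 1.79 and 1.88 FPKM. Enterocyte markers were past 2-fold upward, where 2.44% of all measured genes were, among them Fabp1 (2173 and 7580 FPKM, log2 ratio 1.80), Fabp2 (2.48), Apoa1 (2.71), Apoa4 (1.64), Alpi (1.41), Lct (2.98) and Sis (2.32). The 8 stem cell markers summed to 103.8 and 82.8 FPKM, with Sox9 (22.5 and 9.68 FPKM, -1.14) past 2-fold downward, though not with either other scaling. Of the 8, 5 lay above the median log2 ratio of all genes and 3 below. Goblet cell markers summed to 2058 and 2401 FPKM, with Clca1 past 2-fold upward (1.52) and Agr2 downward (-1.04), though not with either other scaling. Enteroendocrine markers summed to 843 and 464.6, with Tph1 (-1.98) and Gcg (-1.86) past 2-fold downward, where 2.18% of all measured genes were. Neurog3, of the same list, went the other way, from 3.01 to 6.07 FPKM (0.82), and passed 2-fold upward with the TMM factor, explained below. Tuft cell markers summed to 13.8 and 10.4 with none past 2-fold. The values in parentheses are log2 ratios, explained with the first results. In bulk RNA, fewer cells of a type and less RNA per cell cannot be told apart.

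Wnt ligands are lipid-modified in the endoplasmic reticulum by Porcupine, carried to the surface by Wntless, and bind a Frizzled receptor together with the coreceptor LRP5 or LRP6. Through Dishevelled this stops a complex of Axin, APC and GSK3 from marking beta-catenin for destruction, and beta-catenin then switches on target genes with TCF/LEF factors. R-spondins, bound to LGR receptors, remove the ligases RNF43 and ZNRF3, which otherwise clear Frizzleds from the membrane. In the intestinal crypt this pathway maintains stem cells, with WNT3 from Paneth cells and further ligands and R-spondins from the stroma as known sources.

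No Wnt pathway gene at 1 FPKM or more in either library differed by 2-fold between the genotypes, and larger folds were seen only below that level. The difference is given as log2((KO FPKM + 1)/(WT FPKM + 1)), the log2 ratio, and understates the fold of low genes. A gene that reached 1 FPKM in either library is called measured. Of the 56 genes 24 were measured, and 32 were under 1 FPKM in both libraries. Past 2-fold were 0 of the 24 upward in KO and 0 downward, where 2.44% and 2.18% of all 12079 measured genes were, together 4.62%. A count of 0 among 24 genes is close to that background. The median log2 ratio of the 24 was -0.05, with a range from -0.45 for Rnf43 to 0.55 for Apcdd1, and all 24 lay between the 5th and the 95th percentile of all measured genes, at -0.78 and 0.63. The median of all measured genes was -0.18, and 16 of the 24 lay above it and 8 below. With libraries scaled by the TMM method, a trimmed mean of log ratios, the median of the 24 became 0.16 and that of all genes 0.02, so the sign of the group's median depends on the scaling.

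At a lower threshold of 1.5-fold, 0 of the 24 passed, where 17.1% of all measured genes did (5.7% higher and 11.4% lower in KO). That count depends on the processing. Fzd4 and Apcdd1 passed 1.5-fold upward with the TMM factor (2 of 24, against 9.69% of all genes higher), and with the median of all genes set to 0 (2 of 24, against 9.08%). With a pseudocount of 0.1 FPKM they passed upward again (2 of 24, against 7.05%) and Fzd6 downward (1 of 24, against 17.6%).

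**Figure D1:**
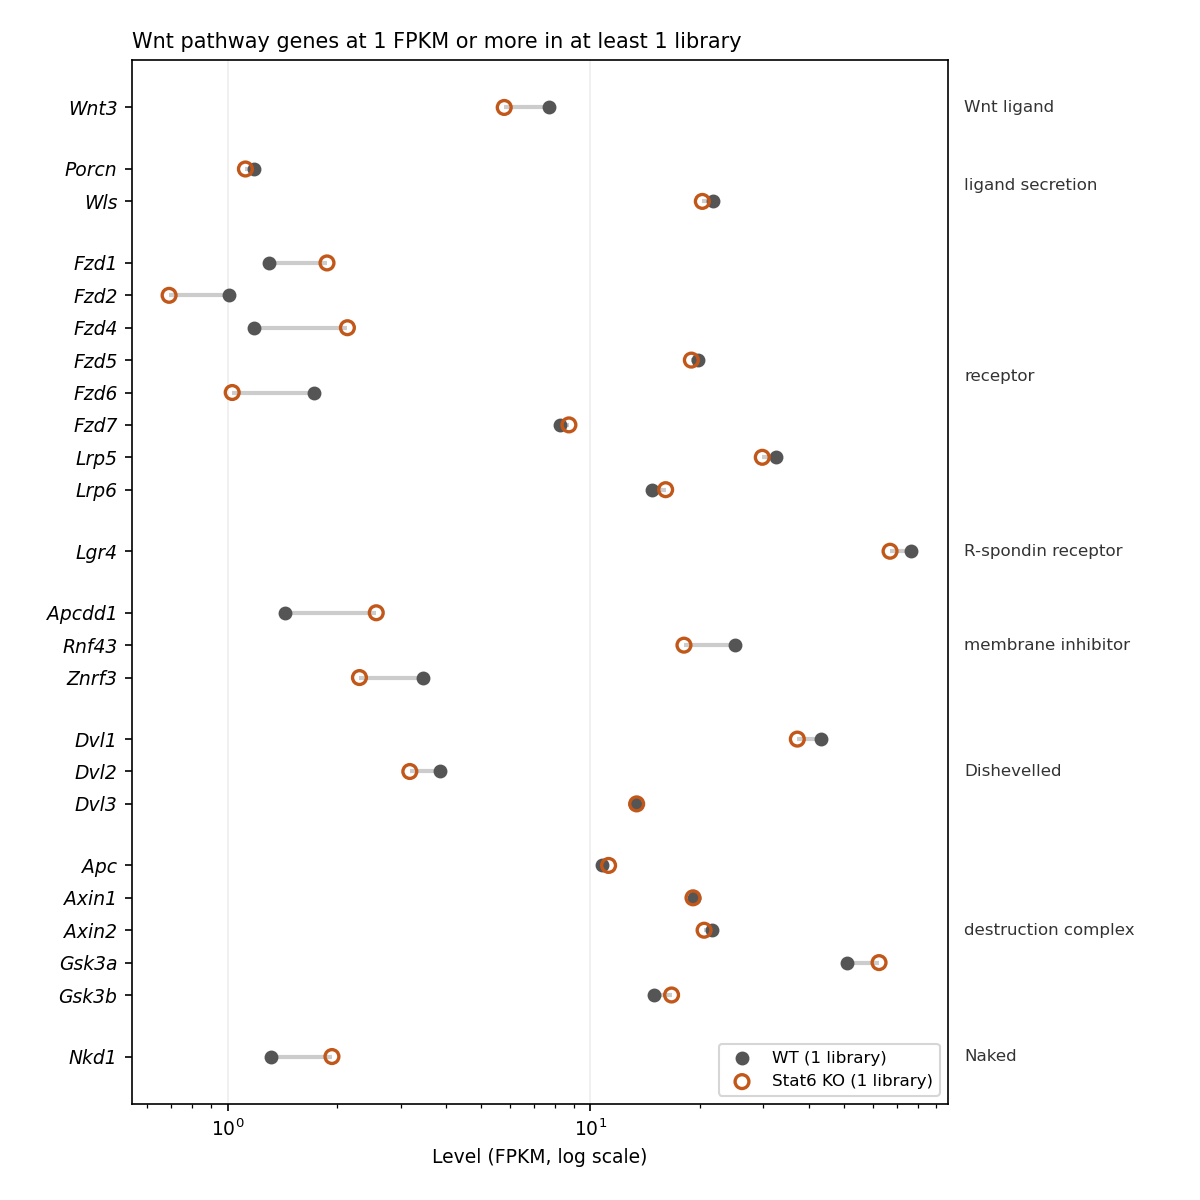
Level in FPKM (log scale) of the 24 measured Wnt pathway genes, grouped by role, with a filled point for the WT library and an open one for the Stat6 KO library, 1 library each and no error bars. In WT the levels run from 1.01 FPKM for Fzd2 to 76.5 FPKM for Lgr4, and the 2 points of a gene lie close together next to that span.

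Among the ligands, 1 of 15 Wnt genes was measured. Wnt3, the ligand that Paneth cells are known to make, was at 7.69 FPKM in WT and 5.79 in KO, a 1.33-fold lower level in KO (log2 ratio -0.36). It made up 71.4% of the summed FPKM of the 15 Wnt genes in WT and 72.8% in KO, so its predominance was alike in the 2 libraries. The 8 Paneth cell markers summed to 2179 FPKM in WT and 2298 in KO with none at 0. Of the 8, 7 lay above the median log2 ratio of all genes, and Pla2g2a was past 2-fold downward, at 235 and 110.6 FPKM (-1.08), though not with either other scaling. Whether Paneth cell content bears on the Wnt3 level was not tested.

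The other 14 Wnt genes were each at 0.63 FPKM or less in WT and at 0.44 or less in KO. Wnt9a was the highest of them, at 0.63 and 0.44 FPKM, followed in WT by Wnt10a (0.49 and 0.23), Wnt5b (0.45 and 0.21) and Wnt2b (0.37 and 0.32), the last a ligand of crypt stroma. Wnt5a, which acts mainly without beta-catenin, was at 0.22 and 0.20 FPKM. Wnt4 (0.13 and 0.27), Wnt11 (0.11 and 0.21) and Wnt9b (0.08 and 0.13) had the higher value in KO. Wnt1 and Wnt16 were listed at 0 in the WT library and had 0.04 and 0.03 FPKM in the KO library. Wnt10b was at 0.09 FPKM in WT and listed at 0 in KO, and Wnt7a was listed at 0 in both.

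The genes for ligand release were present at unequal levels. Wls, the carrier of Wnt proteins to the cell surface, was at 21.9 FPKM in WT and 20.4 in KO (log2 ratio -0.10). Porcn, the acyltransferase that attaches the lipid, was at 1.18 and 1.12 FPKM (-0.04). Neither gene stood apart between the libraries, and Wls was 18.5 times as high as Porcn in WT and 18.2 times in KO.

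The Frizzled receptors were led by Fzd5 and Fzd7 in both libraries. Fzd5 was at 19.8 FPKM in WT and 19.0 in KO (log2 ratio -0.06), and Fzd7 at 8.25 and 8.73 (0.07). Together they held 81.5% of the summed FPKM of the 10 Frizzled genes in WT and 80.7% in KO, and that sum was 34.5 FPKM in WT and 34.4 in KO. The total and its leading members were thus nearly the same in the 2 libraries in FPKM as deposited. With the TMM factor the log2 ratios became 0.16 for Fzd5 and 0.28 for Fzd7.

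The minor Frizzled genes differed more. Fzd4, also the receptor for the non-Wnt ligand norrin, was at 1.18 FPKM in WT and 2.14 in KO (log2 ratio 0.53). That is a 1.81-fold higher level, from about 158 and 289 reads, with a 95% exact binomial interval of 1.49 to 2.21 for the fold. This interval and those below rest on estimated reads and cover counting error only, not the spread between cultures. Fzd4 had the largest fold of the measured Frizzled genes, so its interval is a description. Fzd1 was at 1.30 and 1.88 FPKM (0.32), also higher in KO (1.45-fold, interval 1.13 to 1.87). On the other side were Fzd6, a receptor tied to planar cell polarity, at 1.73 and 1.03 FPKM (-0.43), and Fzd2, at 1.01 FPKM and 0.69 FPKM (-0.25). For Fzd6 the level was 1.68-fold higher in WT (interval 1.27 to 2.21). For Fzd2 it was 1.46-fold higher in WT, from about 73 and 51 reads, with an interval of 0.997 to 2.11. This interval only just includes no difference, and a multiple of the estimated depth would narrow it. Both pairs kept their signs under each scaling and pseudocount tried. As a share of the summed Frizzled FPKM, Fzd4 went from 3.43% to 6.23% and Fzd6 from 5.02% to 3.0%. Fzd9 (0.48 and 0.40), Fzd8 (0.35 and 0.36), Fzd3 (0.29 and 0.12) and Fzd10 (0.02 and 0.02) were under 1 FPKM in both libraries.

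The coreceptors moved in opposite directions by small amounts. Lrp5 was at 32.5 FPKM in WT and 29.8 in KO (log2 ratio -0.12, and 0.10 with the TMM factor), and Lrp6 at 14.8 and 16.1 (0.12). The ratio of Lrp5 to Lrp6 within a library, which no scaling changes, was 2.20 in WT and 1.85 in KO.

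Lgr4, a receptor for R-spondins, was the most abundant of the 56 genes in both libraries, at 76.5 FPKM in WT and 67.0 in KO. It ranked 1129th in WT and 1260th in KO among the 18944 genes listed. Its log2 ratio of -0.19 was next to the median of all genes, and became 0.04 with the TMM factor. It stood 42.8 times above Lgr5 in WT and 35.7 times above it in KO. All 4 R-spondin genes were under 1 FPKM. Rspo4 was at 0.82 FPKM in WT and 0.34 in KO, and Rspo1, Rspo2 and Rspo3 were at 0.04 FPKM or less in both, so transcripts of the R-spondin type supplied in the medium were close to 0 in the cells.

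A stretch before the annotated start of the 4 genes listed next is shown from RefSeq (GRCm38.p6, a later build than the mm9 of the deposited tables), since they are the most abundant surface member, both GSK3 genes and the feedback gene Axin2. Each is given 5′ to 3′ on the gene's strand. Capitals mark the STAT6-type letters, TTC and GAA with any 4 bases between them, in the first, and TCAAAG, the reverse complement of the TCF/LEF letters CTTTGA, in the second and the third. The stretches begin 200 (Lgr4), 190 (Gsk3a) and 110 (Gsk3b and Axin2) bases before the start. Those of Lgr4, Gsk3a and Gsk3b take in letters found in the search below, so the 4 do not stand for the members at large.
Lgr4 (chr2:109917447-109917526, plus strand): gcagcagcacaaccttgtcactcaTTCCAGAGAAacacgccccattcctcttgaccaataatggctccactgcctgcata
Gsk3a (chr7:25237962-25238041, minus strand): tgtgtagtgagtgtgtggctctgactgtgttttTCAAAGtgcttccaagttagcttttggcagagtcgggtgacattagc
Gsk3b (chr16:38088891-38088970, plus strand): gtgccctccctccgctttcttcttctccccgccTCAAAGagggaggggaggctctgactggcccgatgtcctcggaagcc
Axin2 (chr11:108920239-108920318, plus strand): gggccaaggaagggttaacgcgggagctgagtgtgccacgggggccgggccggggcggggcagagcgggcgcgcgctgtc

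RefSeq windows from 250 bases before to 50 bases after the start were held for 36 of the 56 genes. The letters CTTTGA were found on either strand in 6 of the 36 (16.7%), namely Gsk3a, Gsk3b, Fzd1, Dkk1, Wnt11 and Wnt5b, and in 18.2% of the 27025 genes with a window. The longer CTTTGAT, which contains CTTTGA, was in 2 of 36 (5.56%), Wnt11 and Wnt5b, against 4.29% of all. The STAT6-type letters, which read alike on both strands, were in 2 of 36 (5.56%), Lgr4 and Fzd9, against 8.01% of all. These shares are near those of all genes, and the whole Axin2 window held none of the 3. A match is a description of letters and not of a bound site, and other stretches of a gene without a match were not searched.

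With the values as reported, the membrane-bound inhibitors held both the lowest and the highest log2 ratio of the measured members. That ranking depends on the processing. Fzd6 was lowest instead with the TMM factor (-0.31) and with a pseudocount of 0.1 FPKM (-0.70). The highest was Fzd4 with a pseudocount of 0.1 FPKM (0.81) and Gsk3a with 5 FPKM (0.27). Rnf43, the ligase that removes Frizzled receptors, was at 25.1 FPKM in WT and 18.1 in KO, a 1.39-fold difference (log2 ratio -0.45). Its homologue Znrf3 was at 3.46 and 2.31 FPKM, a 1.5-fold difference of the same sign (-0.43). The ratio of Rnf43 to Znrf3 was 7.25 in WT and 7.84 in KO, so the pair was lower in KO by similar factors. Their log2 ratios are not extreme next to those of all measured genes, of which 20.5% lay at or below Rnf43 and 22.03% at or below Znrf3. Apcdd1, a surface protein that holds back Wnt signalling, went the other way, from 1.44 to 2.57 FPKM (0.55), a 1.78-fold higher level in KO. That fold rests on about 53 and 96 reads, with an interval of 1.27 to 2.56. It is a description, since the reported log2 ratio of Apcdd1 was the highest. Of all measured genes 6.26% lay at or above it.

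The secreted inhibitors were low throughout. All 9 were under 1 FPKM in both libraries, with Wif1, which binds Wnt proteins directly, highest at 0.87 FPKM in WT and 0.76 in KO. Dkk1, which blocks LRP5 and LRP6, was at 0.10 and 0.09 FPKM, and the related Dkk3 at 0.32 and 0.21. Dkk4, at 0.08 FPKM in KO, was listed at 0 in WT. The Frizzled-related decoys Sfrp1 (0.14 and 0.09), Sfrp5 (0.19 and 0.26) and Sfrp2 (0.05 in WT and listed at 0 in KO) were near the floor. Notum, the enzyme that strips the lipid from Wnt proteins and a target of the pathway, was at 0.03 and 0.10 FPKM, about 1 and 4 reads.

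**Figure D2:**
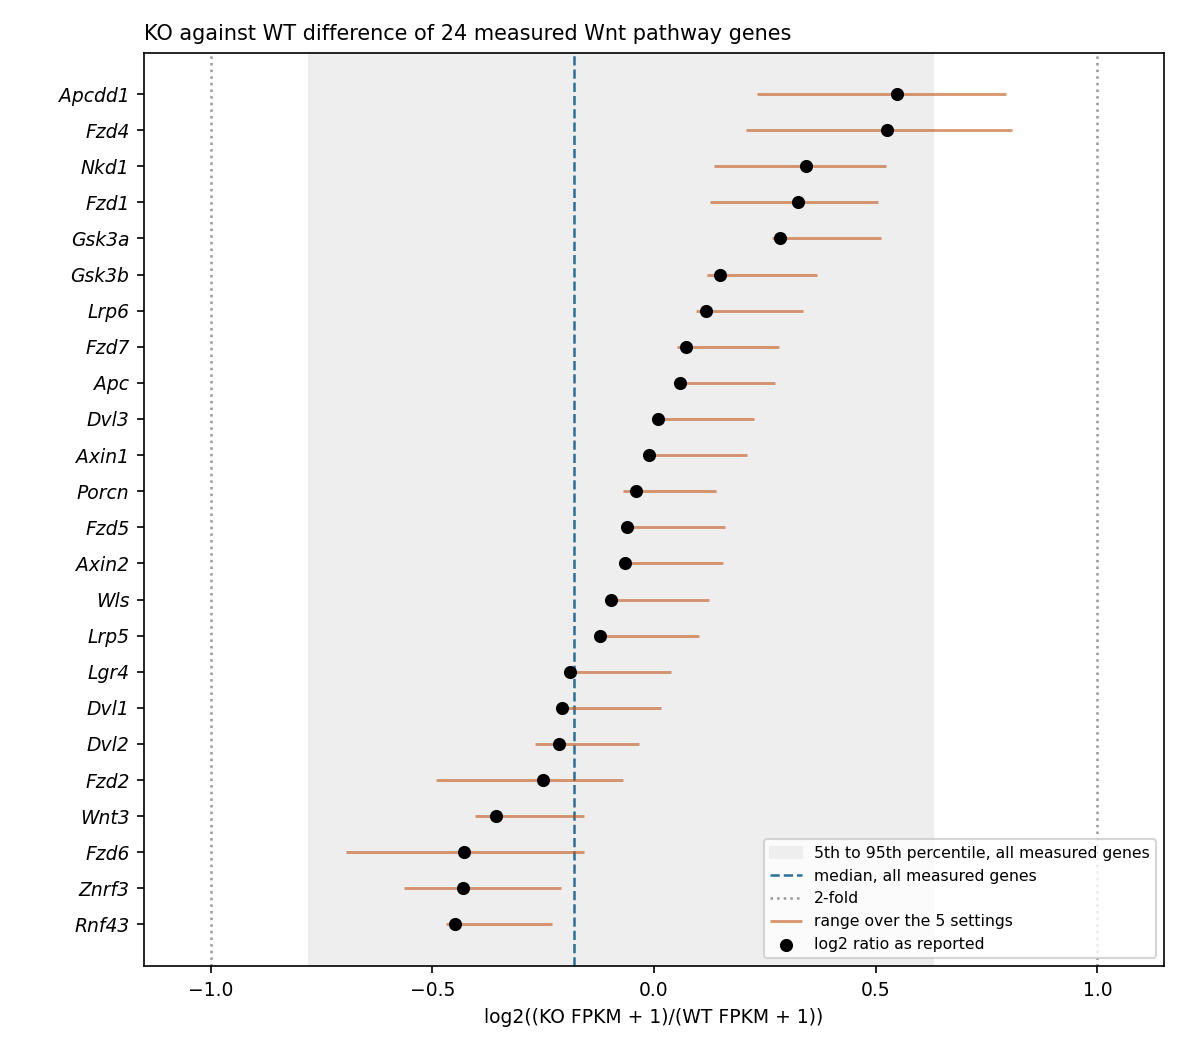
Log2 ratio of KO against WT (horizontal axis) for the 24 measured Wnt pathway genes, 1 library per genotype. Black points are the values as reported, orange lines span these and 4 alternative settings, the grey band spans the 5th to 95th percentile of all measured genes (-0.78 to 0.63), the dashed line is their median (-0.18) and dotted lines mark 2-fold. All points lie inside the band and no orange line reaches 2-fold.

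The Dishevelled genes, whose proteins relay the signal from the receptors, kept their order. Dvl1 was at 43.2 FPKM in WT and 37.2 in KO (log2 ratio -0.21), Dvl3 at 13.3 and 13.4 (0.01) and Dvl2 at 3.85 and 3.18 (-0.21). Dvl1 made up 71.5% of their sum in WT and 69.2% in KO.

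The destruction complex genes among the members lay above the median of all genes, 5 of 5, with a median log2 ratio of 0.06. Of all 24 measured members, 16 lay above the median of all genes. Of 22 measured cytoplasmic components outside the members 14 did and 8 lay below, with the kinases Csnk1a1 (0.17) above and Csnk1e (-0.57) below. Gsk3a, one of the kinases that mark beta-catenin, was at 51.1 FPKM in WT and 62.5 in KO (log2 ratio 0.28, a 1.22-fold higher level in KO). Its paralogue Gsk3b was at 15.02 and 16.75 FPKM (0.15). Both were higher in KO under each scaling, and Gsk3a made up 77.3% and 78.9% of their sum. Apc, the large scaffold of the complex, was at 10.7 and 11.2 FPKM (0.06). The scaffold Axin1 was at 19.4 and 19.2 FPKM (-0.01), and Axin2, the scaffold that the pathway itself induces, at 21.6 and 20.6 (-0.07). Both Axin values differed by less than 5% between the libraries and took the other sign with the TMM factor, at 0.21 and 0.16.

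The Naked genes encode Dishevelled-binding inhibitors. Nkd1, a target of the pathway, was at 1.32 FPKM in WT and 1.94 in KO (log2 ratio 0.34). Nkd2 was at 0.50 and 0.12 FPKM, under 1 FPKM in both libraries. The pair thus lay on opposite sides.

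The 32 genes under 1 FPKM together summed to 7.67 FPKM in WT and 5.22 in KO. Of them 19 had the lower value in KO, 9 the higher and 4 the same, which is 59.4%, 28.1% and 12.5%. Of all 6865 listed genes under 1 FPKM in both libraries, 54.8% were lower in KO, 28.6% higher and 16.6% the same, so the tilt was close to that of low genes in general.

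A pseudocount of 1 FPKM hides large folds at these levels. With a pseudocount of 0.1 FPKM and a minimum of 0.2 FPKM in at least 1 library, a setting chosen after the values were seen, 5 of 42 genes were at least 2-fold lower in KO and 0 higher, where 7.11% of all genes were lower and 3.41% higher. With no minimum level 5 of 56 were lower and 0 higher, against 6.3% and 3.11% of all genes. They were Dkk2, Wnt7b, Nkd2, Rspo4 and Wnt6. These 5 were picked for their fold, so their values are a description. Dkk2, an inhibitor that binds LRP5 and LRP6, was at 0.33 FPKM in WT and 0.03 in KO, about 24 and 2 reads. Wnt7b was at 0.31 and 0.03 FPKM, about 19 and 2 reads. Nkd2 had about 28 and 7 reads, Rspo4 about 38 and 16, and Wnt6, at 0.20 and 0.05 FPKM, about 8 and 2. All 5 passed the minimum in WT, and only Rspo4 also did in KO. Fzd3, outside those 5, had about 74 and 31 reads, as many in WT as some measured members have.

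Markers of non-epithelial cells were also lower in KO. The 8 endothelial markers summed to 21.4 FPKM in WT and 9.37 in KO, and of the 6 measured 1 was past 2-fold downward (Cldn5). The 8 white blood cell markers summed to 28.1 and 11.8, and of the 6 measured 2 were (Cd68 and Coro1a), where 2.18% of all genes were. With a pseudocount of 0.1 FPKM these counts were 4 and 4, adding Egfl7, Emcn and Pecam1, and Csf1r and Ptprc, where 5.0% of all genes were lower. With 5 FPKM they were 0 and 1 (Cd68), where 0.522% were. The 13 fibroblast and smooth muscle markers summed to 10.8 and 7.68 FPKM, with 10 of 13 under 1 FPKM in both and Pdgfra at 0.05 in each, and the 8 nerve and glia markers to 21.3 and 14.1. Gfap, of the last list, was listed at 0 in KO, and no other of these 37 markers was at 0 in either library. The part of such cells in the low Wnt, Dkk and Rspo values was not tested.

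**Figure D3:**
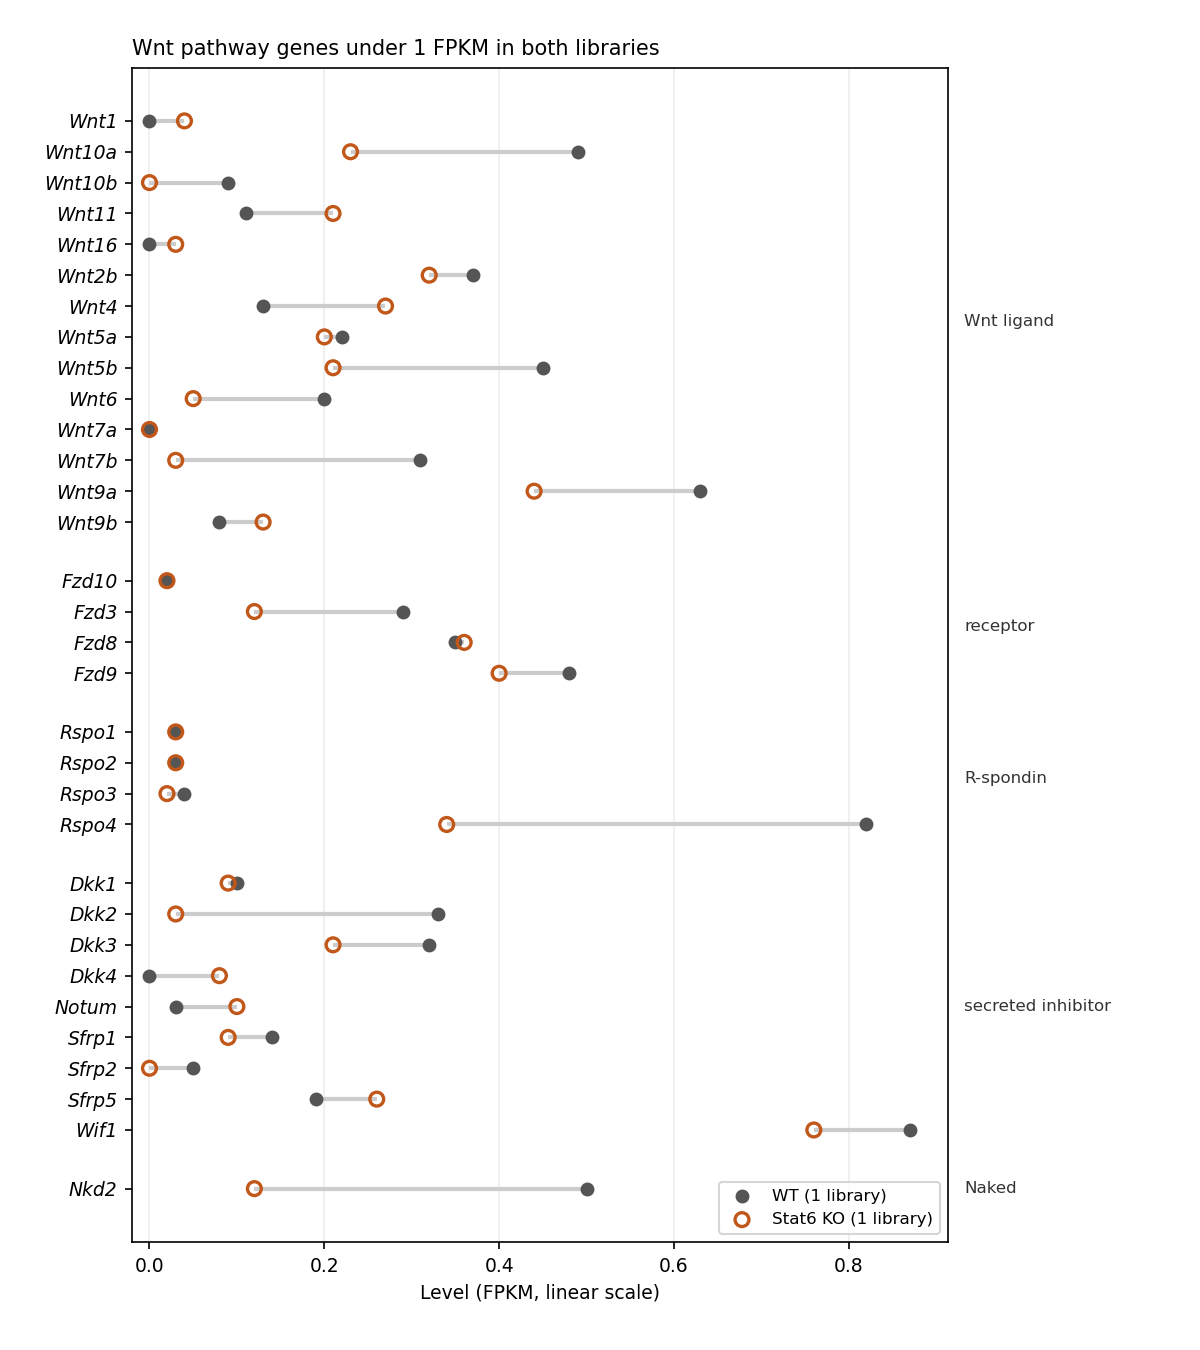
Level in FPKM (linear scale) of the 32 Wnt pathway genes under 1 FPKM in both libraries, grouped by role, filled points for WT and open points for Stat6 KO, 1 library each and no error bars. Rspo4, Nkd2, Dkk2 and Wnt7b show the longest lines to a lower KO value along with Wnt10a and Wnt5b, while Wif1 is highest in both libraries.

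Other genes of the pathway, from lists of 78 symbols that leave out the 56, were compared in the same way. Of 75 listed genes 51 were measured, 0 were at least 2-fold higher or lower in KO (2.44% and 2.18% of all measured genes), and their median log2 ratio was -0.10. With a pseudocount of 0.1 FPKM 1 of the 51, Ptk7, was at least 2-fold lower, against 5.0% of all. Among 7 measured receptors and surface modulators, Ryk (19.4 and 20.8 FPKM, 0.10) and Lgr5 (0.05) were highest and the Wnt coreceptors Ptk7 (3.97 and 1.68 FPKM, -0.89) and Ror2 (2.49 and 1.66, -0.39) lowest. Among 22 cytoplasmic components, the GSK3-binding proteins Frat2 (7.54 and 10.6 FPKM, 0.44) and Frat1 (0.34) were highest, and the cytoskeletal linker Macf1 (13.7 and 7.84 FPKM, -0.74) and the kinase Csnk1e (20.5 and 13.5 FPKM, -0.57) lowest. Among 16 nuclear components, the acetyltransferase Crebbp (0.32) and the corepressor Tle1 (0.21) were highest and Tcf7 (-0.41) and Pygo2 (-0.41) lowest. The 6 measured planar cell polarity genes had a median of -0.36, from Daam1 (0.10) and Invs (0.07) to Celsr1 (-0.48) and Scrib (-0.50). That median stayed negative with the TMM factor, at -0.22.

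Among 25 textbook targets of the pathway in crypts, 9 belong to the 56 genes and 16 do not. Of the 9, 6 were measured (Axin2, Nkd1, Apcdd1, Rnf43, Znrf3 and Fzd7), with 0 past 2-fold and a median log2 ratio of 0.00, and 4 of the 6 lay above the median of all genes. Of the 16 others, 15 were measured, with 0 higher and 2 lower, Cd44 (85.9 and 28.8 FPKM, -1.54) and Sox9 (22.5 and 9.68 FPKM, -1.14), and a median of -0.29. Of these 15, 5 lay above the median of all genes and 10 below, among them Ascl2 (-0.71) and Myc (-0.51), named after their values were seen. Sox9 was no longer past 2-fold with the TMM factor (-0.93), the median of all genes set to 0 (-0.96) or a pseudocount of 5 FPKM (-0.91). The highest of the 15 were Tnfrsf19 (0.19) and the transcription factor Sp5 (5.94 and 6.75 FPKM, 0.16). The difference between the 2 sets was not tested.

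**Figure D4:**
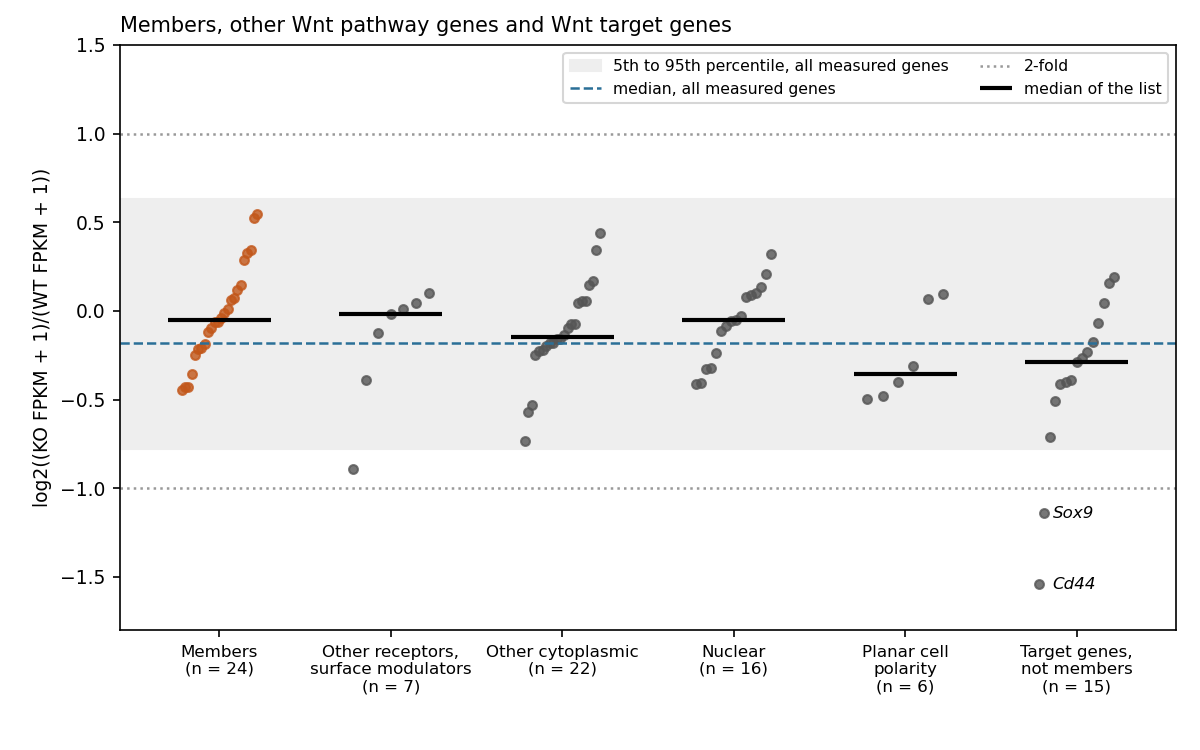
Log2 ratio of KO against WT (vertical axis) for measured genes of 6 sets, 1 point per gene in rising order within a set, with the median of each set as a black bar. The grey band is the 5th to 95th percentile of all measured genes, the dashed line their median and dotted lines 2-fold. Only Cd44 and Sox9, both targets outside the 56 genes, lie past 2-fold.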

How the data were processed

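RNA from 2 cultures, 1 WT and 1 Stat6 KO, was sequenced as single-end reads of 50 bases, and the labels' protocols state an average of 59000000 per sample. The deposited values are FPKM per gene, rounded to 2 decimals, per the file headers. HISAT, Bowtie2, RSEM and the mm9 build are named in the submitters' processing notes. Versions, roles, annotation and filters are not stated there. Values of this kind depend on a library total, so a few abundant genes that differ can shift all others.

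The tables were joined on gene number and members selected by symbol. The members and lists were chosen with earlier results of these data known. Log2 ratios used a pseudocount of 1 FPKM, a minimum of 1 FPKM in at least 1 library and a threshold of 2-fold. With 1 library each there was no test of genotype. Every member was named with values or a range and, of the other pathway and target lists, the 2 highest, the 2 lowest and those past 2-fold. Marker lists are given by sums and members past 2-fold, which departs from that rule. Of the enterocyte list not all is reported here.

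Depth was estimated on RefSeq genes under 400 bases, as the depth (searched from 10000000 to 30000000 reads, below the labels' average) and length offset (36 bases) that brought values of up to 5 reads closest to whole reads. Within 0.1 read were 87.6% in WT and 88.5% in KO, shares that the search maximised. Multiples of a depth also give whole reads. At 40000000 reads 111 of the 145 WT values were whole, 106 of them even, so the finer step was seldom used, and in KO 111 of 115 were even. Reads of members used median GENCODE coding transcript lengths and are approximate, and the intervals given are exact (Clopper-Pearson). Alternatives were other pseudocounts, scalings (TMM with trims of 30% and 5%), minimum levels and thresholds. Calculations were tested on simulated data and used Python 3.11.15, pandas 2.3.3, numpy 2.4.6 and scipy 1.17.1.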

Additional observations from a re-analysis of the deposited data

How the results depend on the processing

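The counts of 0 members at least 2-fold higher and 0 lower also came out under the other pseudocounts (0.1 and 5 FPKM), both other scalings, the 4 other minimum levels and thresholds of 1.5-fold and 4-fold, where at 2-fold 1.19% to 3.62% of all genes were higher and 0.522% to 5.0% lower. The 2 alternatives chosen after seeing the data, a pseudocount of 0.1 FPKM with no minimum level or with a minimum of 0.2 FPKM, each gave 5 lower and 0 higher, among 56 and 42 members. The first set these 5 against 6.30% of all genes lower. The median log2 ratio of the members was -0.07 and -0.03 with pseudocounts of 0.1 and 5 FPKM, and turned positive with the TMM factor (0.16) and with the median of all genes set to 0 (0.13). Of the 24 measured members 10 were higher and 6 lower in KO under the reported and all 4 alternative pseudocounts and scalings, and 8 changed sign. Among other pathway genes 1, Ptk7, was at least 2-fold lower with a pseudocount of 0.1 FPKM. Among targets outside the members 1, Cd44, was lower with the TMM factor, 1 with the median of all genes set to 0 and 1 with a pseudocount of 5 FPKM. No replicate could be left out, and no paired analysis was possible because each genotype has 1 library. For members at a few reads, depth limits what can be seen.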
